A study of Mus musculus with 2 samples.

Results

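The carboxylesterase family of the mouse liver was described across the 2 libraries of the series. Its members were the 10 genes whose symbol in the deposited transcript table was *Ces1b*, *Ces1c*, *Ces1d*, *Ces1e*, *Ces1f*, *Ces1g*, *Ces2a*, *Ces2c*, *Ces2e* or *Ces3a*. The rule uses their names alone, but they were listed with earlier results of these data known. They were 10 of 45777 genes and held 20 of 129299 transcripts. The control library came from the liver of C57BL/6 mice that received AAV-GFP, and the other from the liver of C57BL/6 mice that received AAV-*Wee1-AS*, a virus that overexpresses the long noncoding RNA *Wee1-AS*. In the methods of the study the mice are C57BL/6 N, 7 weeks old when the high-fat diet began, fed it for 18 weeks, and injected through the retro-orbital sinus at week 13, 5 weeks before the end. Both groups therefore share the diet, the strain and a virus. The AAV9 vector carried a CMV promoter, which is not restricted to hepatocytes. No label states the sex of the mice or that animals were pooled. *Wee1-AS* itself was not analysed here. Each group is represented here by 1 library, although 4 liver samples are mentioned in the design text, so the spread among mice is unknown and differences are given without p-values.

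Carboxylesterases are serine hydrolases that cleave ester, amide and thioester bonds of drugs and of lipids. Most of them sit in the lumen of the endoplasmic reticulum of hepatocytes, where they clear ester drugs and take part in the turnover of stored triacylglycerol and in the loading of very-low-density lipoprotein (VLDL). Mice have several tandem copies of the genes where humans have few, and *Ces1c* encodes the form that mice secrete into plasma.

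All members lie on chromosome 8 of the mouse genome (build mm10, GRCm38) in a pair of clusters. The *Ces1* members and *Ces5a* fall in a stretch of 516 kb from 93020214 to 93535879. The *Ces2* and *Ces3* members and *Ces4a* fall in a stretch of 416 kb from 104734003 to 105150109. The catalytic serine is shown first, because the motif around it was found in the coding sequence of every member. Each line gives 27 bases of the coding sequence, 5′ to 3′, read from the GENCODE M21 transcripts of the same build, and the capitals mark the 5 codons of the motif glycine, any residue, serine, any residue, glycine.
Ces1b (chr8:93071882-93071908, strand minus): gtctttGGGTCATCAGCAGGAggtgtc
Ces1c (chr8:93123115-93123141, strand minus): atctttGGAGAGTCATCAGGGggtatc
Ces1d (chr8:93187758-93187784, strand minus): atctttGGAGAGTCAGCAGGAggtttc
Ces1e (chr8:93217514-93217540, strand minus): atctttGGAGAGTCAGCAGGAggtgaa
Ces1f (chr8:93269989-93270015, strand minus): atctttGGAGAGTCAGCAGGAggttac
Ces1g (chr8:93328393-93328419, strand minus): atcttcGGCGAGTCAGCAGGAggtgaa
Ces2a (chr8:104737404-104737430, strand plus): atatttGGAGTCTCAGCAGGAggtaca
Ces2c (chr8:104850762-104850788, strand plus): atttttGGCGAGTCTGCAGGTggcaca
Ces2e (chr8:104929809-104929835, strand plus): atttttGGAGAGTCAGCAGGTggcaca
Ces3a (chr8:105051580-105051606, strand plus): atcttcGGTAACTCTGCTGGAggcatt
All of these windows lay in exon 5, and the serine was codon 221 to 232 of an open reading frame of 554 to 571 codons. The codons in capitals were those for glycine, glutamate, serine, alanine, glycine in 6 of the 10 members, and *Ces1b*, *Ces1c*, *Ces2a* and *Ces3a* had codons for another residue beside the serine.

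The last 30 coding bases are shown because a known retention signal can be read there. In the lines below the capitals mark the 4 codons of a terminal histidine, any residue, glutamate, leucine, the sequence by which soluble proteins are returned to the endoplasmic reticulum, and a window without capitals did not have these codons.
Ces1b (chr8:93056887-93056916): gaccctactgagcacagagaacacaaatga
Ces1c (chr8:93099165-93099194): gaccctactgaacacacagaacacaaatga
Ces1d (chr8:93166255-93166284): ccatcccacagggaaCATGTTGAGCTCtga
Ces1e (chr8:93201404-93201433): caactgccgacagaaCACACTGAGCTGtga
Ces1f (chr8:93256429-93256458): caaccccagccatacCACAATGAGCTGtga
Ces1g (chr8:93302905-93302934): tcatcccatagggaaCATGTTGAACTGtga
Ces2a (chr8:104741387-104741416): ggttctcaggacaagCATGCAGAGCTGtag
Ces2c (chr8:104854235-104854264): gcttctcaggacaagCACAGGGAGCTTtag
Ces2e (chr8:104933685-104933714): gggtctcaggagaggCACAAAGAGTTGtag
Ces3a (chr8:105058074-105058103): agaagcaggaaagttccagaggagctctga
The signal was present in 7 members and not in *Ces1b*, *Ces1c* and *Ces3a*. The windows lie in the last coding exon of each gene. The 3 genes of the receptor for the signal were counted as well. *Kdelr1* had 8611 counts with AAV-GFP and 4758 with AAV-*Wee1-AS*, *Kdelr2* had 4139 and 2687, and *Kdelr3* had 94 and 16. After scaling, their log2 ratios of the AAV-*Wee1-AS* library over the control were -0.59, -0.36 and -2.17, so *Kdelr3* was past 2-fold.

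**Figure D1:**
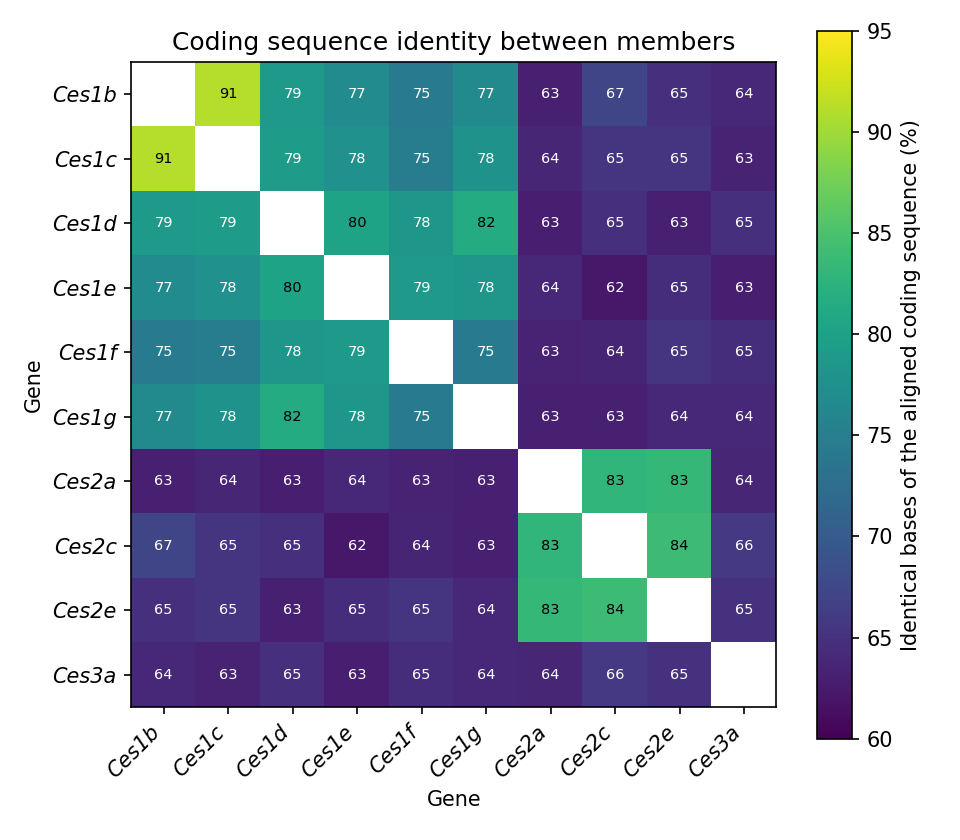
Percentage of identical bases in the aligned coding sequences of each pair of the 10 members, with genes on both axes. Pairs within the *Ces1* or the *Ces2* group reached 74.5% to 91.2%, and pairs between groups 62.3% to 67.3%.

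The coding sequences fall into the groups that the names give. In the heat map of coding identity, the 18 pairs of members within *Ces1* or within *Ces2* shared 74.5% to 91.2% of aligned bases, and the 27 pairs between groups shared 62.3% to 67.3%. *Ces1b* and *Ces1c* were the closest pair of members (91.2%). *Ces3a* was closest to its neighbour *Ces3b* (95.3%), and *Ces2c* to *Ces2b* (92.1%). Such copies can compete for reads. Of all 100-base windows of the coding sequence, 18.8% were found letter for letter in another gene for *Ces2c* (*Ces2d-ps*, *Gm6831* and *Gm8798*), 12.7% for *Ces2a* (*Gm7208*) and 10.1% for *Ces3a* (*Ces3b*), while *Ces1b* and *Ces1c* shared 24 windows with each other. None was shared for *Ces1d*, *Ces1e*, *Ces1f*, *Ces1g* and *Ces2e*. The values of *Ces2c*, *Ces2a* and *Ces3a* are therefore uncertain by the reads that such copies exchange. So is the value of *Ces1b*, because *Ces1c* is far more abundant (5171 against 122498 counts with AAV-GFP).

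The measurement was RNA sequencing of poly-A RNA. The authors deposited for each transcript estimated counts together with FPKM and TPM, which are counts divided by transcript length and scaled to the library, TPM so that every library has the same sum. Estimated counts totaled 55466182 with AAV-GFP and 48079335 with AAV-*Wee1-AS*. The tissue labelled liver held hepatocyte markers at a summed 89960 TPM with AAV-GFP and 95985 TPM with AAV-*Wee1-AS*, with 9 of the 10 symbols of the list found in the table. *Alb* alone held 37459 and 53289 TPM of these sums. Of the 9 hepatocyte markers, 3 had log2 ratios above 0 and 6 below, with a median of -0.06. All 5 kidney tubule markers were at 0 in both libraries. Of the 5 enterocyte markers, *Sis* and *Alpi* were at 0 in both and *Vil1* had 3 and 5 counts, while *Fabp2* had 160 and 175 TPM and *Apoa4*, which liver also expresses, had 6107 and 961 TPM. The libraries also differed in genes tied to sex. With AAV-*Wee1-AS*, all 4 Y-linked genes of the list were more than doubled (3 of 4 with trends in base composition and length removed). All 4 were counted in both libraries, the scarcest being *Uty* with 52 and 322 counts, and *Xist* was at 0 in both. Of 7 male-biased liver genes, 3 were past 2-fold and higher (with those trends removed, 2 higher and 1 lower), and of the 7 female-biased genes that passed the count filter, 3 were past 2-fold and lower (3 also with those trends removed), with none of the 7 above 0. The shares over all genes were 22.2% past 2-fold upward and 8.71% downward. Summed markers of Kupffer cells were at 330 and 262 TPM, of endothelial cells at 126 and 104 TPM, of stellate cells at 171 and 163 TPM, and of cholangiocytes at 44.1 and 37.9 TPM. Within these lists the genes went both ways, with 2 of 5 Kupffer cell markers and 2 of 6 stellate cell markers past 2-fold on the higher side, and with those trends removed 0 of either list on that side and 1 stellate cell and 1 cholangiocyte marker on the lower. The part of these differences in the carboxylesterase values was not tested. In whole liver, fewer hepatocytes and less RNA per hepatocyte cannot be told apart.

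Carboxylesterase RNA was abundant in both livers. The 10 members together made up 0.616% of all TPM with AAV-GFP and 0.588% with AAV-*Wee1-AS*, and *Ces1c* and *Ces3a* alone held 64.4% and 68.5% of that sum. Levels between genes are given here in TPM, which is per length. *Ces1c* had 2021 TPM with AAV-GFP and 2206 TPM with AAV-*Wee1-AS*, rank 64 and rank 75 among all genes. *Ces3a* followed with 1943 TPM and 1818 TPM. A middle group held *Ces1d* (497 and 472 TPM), *Ces1f* (487 and 451 TPM) and *Ces2e* (479 and 329 TPM). *Ces1g* had 296 and 227 TPM, *Ces1e* 197 and 154 TPM, and *Ces2a* 119 and 105 TPM. The lowest members were *Ces1b* (81.5 and 84.5 TPM) and *Ces2c* (37.3 and 31.0 TPM).

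The order of the 10 levels was the same in both libraries. From *Ces1c* down to *Ces2c* the level spanned 54.2-fold with AAV-GFP and 71.2-fold with AAV-*Wee1-AS*. Exact 95% Poisson intervals, which cover counting error only, overlapped for the neighbours *Ces1d* and *Ces1f* and for *Ces1f* and *Ces2e* with AAV-GFP. With AAV-*Wee1-AS* no neighbours in the order overlapped.

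**Figure D2:**
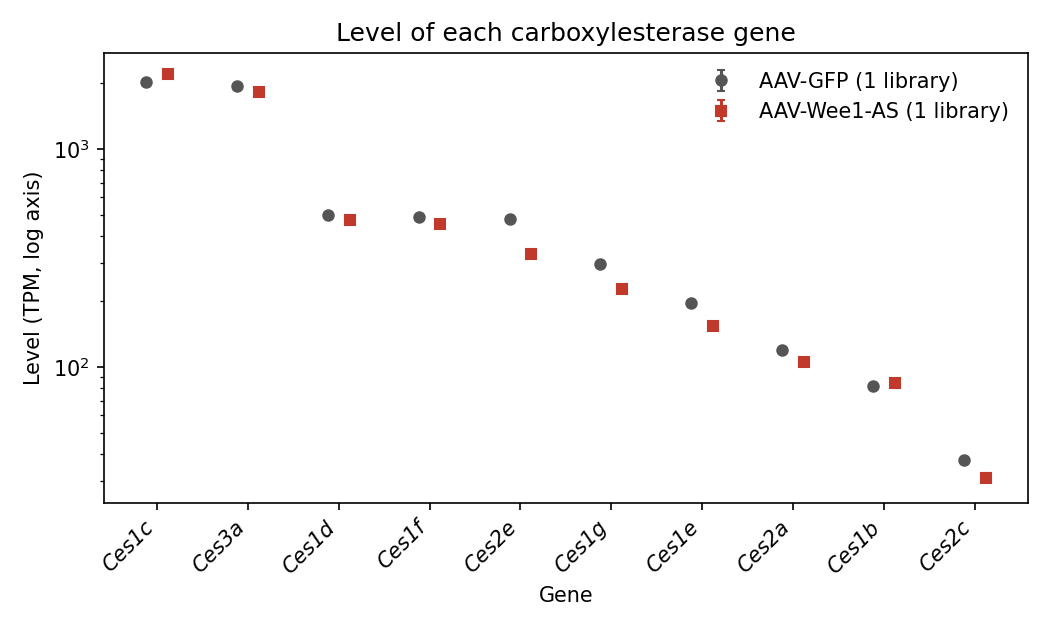
Level of each member in TPM on a log axis, with genes ordered by level, circles for AAV-GFP and squares for AAV-*Wee1-AS* (1 library each), and bars for exact 95% Poisson intervals of the counts. The order of the genes is the same in both libraries, from *Ces1c* at 2021 and 2206 TPM to *Ces2c* at 37.3 and 31.0 TPM.

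The comparison between the livers asked whether *Wee1-AS* overexpression went with another level of these enzymes. None of the 10 members was past 2-fold, the limit that the study used, and all 10 log2 ratios, taken as AAV-*Wee1-AS* over AAV-GFP, lay between -0.50 (*Ces2e*) and 0.15 (*Ces1c*). For comparison, 31.0% of the 15857 genes that reached 10 counts in either library were past 2-fold, 22.2% higher and 8.71% lower. Well-counted genes were past it less often, 11.8% of the 3978 genes that reached 1000 counts in each library, and all 10 members were of that kind. Of the members, 8 were below 0 and 2 above, while 50.5% of all genes were below 0. The median of the members was -0.12 and that of all genes -0.02. The ratios are of TMM-scaled estimated counts with a prior count of 2, each with an exact 95% interval that covers counting error only and compares the libraries, not the treatments. Every member's interval lay within 2-fold and did not include 0.

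Among the *Ces1* members, *Ces1c*, the plasma esterase, had 122498 counts with AAV-GFP and 113317 with AAV-*Wee1-AS*. After scaling this was a log2 ratio of 0.15 (0.14 to 0.16). *Ces1b*, its closest copy, had 5171 and 4544 counts, a ratio of 0.08 (0.02 to 0.13). These were the members above 0, and both fell below 0 when libraries were scaled by the upper quartile of genes (*Ces1c* -0.06, *Ces1b* -0.13) or by the summed hepatocyte markers (*Ces1c* -0.11, *Ces1b* -0.18), scalings that lowered the median of all genes by 0.20 and 0.26. *Alb* is the largest part of the marker sum, with 2542754 and 3065513 counts and a ratio of 0.53. Of the 9 markers, 3 were above 0, *Alb* among them, and 6 below. The marker scaling was not repeated without *Alb*. *Ces1d*, the triacylglycerol hydrolase known from VLDL assembly, had 32191 and 25892 counts and a ratio of -0.05 (-0.07 to -0.03). *Ces1f*, an esterase of the endoplasmic reticulum, had 30744 and 24116 counts and a ratio of -0.09 (-0.11 to -0.06). The lower values of the group were those of *Ces1g*, also known as esterase-x, and *Ces1e*, also known as egasyn, the protein that holds beta-glucuronidase in the endoplasmic reticulum. *Ces1g* had 22291 and 14532 counts, a ratio of -0.35 (-0.38 to -0.32). *Ces1e* had 13441 and 8911 counts, a ratio of -0.33 (-0.37 to -0.29). Summed over the 6 *Ces1* members, the ratio was 0.02 (0.01 to 0.03), a sum that *Ces1c* dominates. The sign of that ratio depends on the scaling, since library totals lowered the median of all genes by 0.06, more than the ratio itself.

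The 3 *Ces2* members, kin of the human enzyme that activates irinotecan, were all lower with AAV-*Wee1-AS* by scaled counts, except that *Ces2a* was above 0 (0.14) with trends in base composition and length removed. *Ces2e* had 32766 counts with AAV-GFP and 19351 with AAV-*Wee1-AS*, the lowest ratio of the 10 members (-0.50, interval -0.52 to -0.47). *Ces2c* had 2421 and 1704 counts, a ratio of -0.24 (-0.33 to -0.15), and -0.08 with those trends removed. *Ces2a* had 7691 and 5773 counts, a ratio of -0.15 (-0.20 to -0.10). Summed, the *Ces2* members had a ratio of -0.41 (-0.43 to -0.39), a sum that *Ces2e* dominates, and their median was -0.24.

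*Ces3a*, the other abundant member, had 115881 and 91765 counts and a ratio of -0.07 (-0.09 to -0.06), which became 0.16 with the trends in base composition and length removed and -0.40 with NM transcripts only. Its neighbour and closest copy *Ces3b*, which is no member, had 10577 and 12645 counts, a ratio of 0.52 (0.48 to 0.56). The ratio of *Ces3b* thus exceeded that of *Ces3a* by 0.59. Because 10.1% of the coding windows of *Ces3a* also occur in *Ces3b*, the counts of both were added after the values had been seen, and the ratio of the sum was -0.01 (-0.02 to -0.001). Between members the widest difference was that of *Ces1c* and *Ces2e*, 0.65 on the log2 scale for summed counts. Scaling the libraries in another way cannot change this value, because the scale factor cancels between genes. The difference was 0.93 with the trends in base composition and length removed. With only the most abundant transcript of each symbol, or only NM transcripts, the widest difference was that of *Ces1c* and *Ces1e* (1.18).

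**Figure D3:**
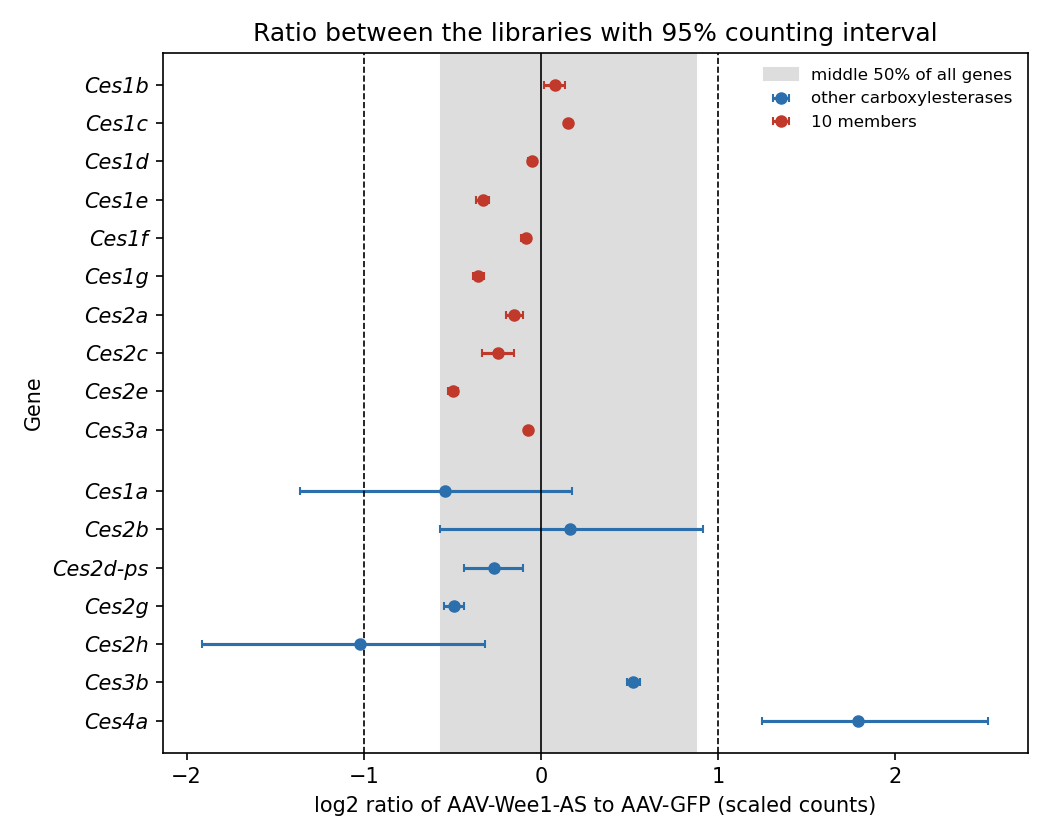
Log2 ratio (AAV-*Wee1-AS* over AAV-GFP) of each member and of the 7 other carboxylesterases past the count filter, with bars for exact 95% counting intervals, a grey band for the middle 50% of all genes and dashed lines at 2-fold. The members lie between -0.50 and 0.15, inside the dashed lines. *Ces1b* and *Ces1c*, above 0 here, lie below 0 when scaled by the upper quartile or by hepatocyte markers, a sum in which *Alb* is largest.

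The table held 10 further carboxylesterase symbols. *Ces2g* had 6911 and 4103 counts, a ratio of -0.49 (-0.54 to -0.43) close to that of *Ces2e*. *Ces2d-ps*, a pseudogene that shares windows with *Ces2c*, had 728 and 504 counts and a ratio of -0.27 (-0.43 to -0.10). The rest were scarce. *Ces4a* had 29 and 88 counts, a ratio of 1.79 (1.25 to 2.52), and *Ces2h* had 51 and 20 counts, a ratio of -1.02 (-1.91 to -0.32), and these were the other carboxylesterases past 2-fold, *Ces2h* no longer so with the trends in base composition and length removed (-0.86). *Ces1a* had 43 and 24 counts and *Ces2b* 34 and 32, with intervals that included 0. *Ces5a* was at 0 and 3 counts, and *Ces1h* and *Ces2f* were at 0 in both libraries, where 0 allows up to 3 counts. With the 7 symbols past the count filter included, the median of all carboxylesterases was -0.15 over 17 genes.

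Neighbouring genes that are no carboxylesterases were compared as well. Inside the *Ces1* cluster, *Gm45910* lies between *Ces1c* and *Ces1d* and had 22 and 49 counts, a ratio of 1.34 (0.67 to 2.22). Inside the *Ces2* cluster, *Gm6831* had 34 and 23 counts and *Gm8798* 199 and 162, with intervals that included 0. Outside the cluster, on the side of *Ces2a*, *Gm7208* (104675318 to 104681600) had 184 and 127 counts, with an interval that included 0. These 3 share coding windows with *Ces2a* or *Ces2c*, and each had at most 199 counts in a library. Of the genes within 100 kb of that cluster, *D230025D16Rik* had 2847 and 2234 counts, a ratio of -0.09 (-0.17 to -0.01), *Ciao2b* had 605 and 419 counts, a ratio of -0.27 (-0.45 to -0.08), and *Cbfb* had 265 and 427 counts, a ratio of 0.95 (0.73 to 1.18). *AI225912* had 0 and 10 counts and was the neighbour of that cluster past 2-fold. It was 4.00-fold higher with the 0 set to a floor of 3 counts and the 10 counts taken as exact. The lower end of its counting interval, 1.43 on the log2 scale, allows a smaller rise.

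Members with several transcripts were compared within the gene. The table lists 1 transcript for 4 members and several for 6 members, and 19 of the 20 transcripts passed the count filter. Of these, 3 were past 2-fold, 1 higher and 2 lower, beside 54.5% of all 39605 transcripts. That share includes scarce transcripts, and no share over well-counted transcripts was taken. The 3 transcripts belonged to *Ces1e* and *Ces2a*.

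In *Ces1e* the curated transcript (2073 bases) had 11779 counts with AAV-GFP and 4821 with AAV-*Wee1-AS*, a ratio of -1.02 (-1.07 to -0.98). The predicted variant X1 (2059 bases) had 1662 and 4090 counts, a ratio of 1.56 (1.48 to 1.65). The share of X1 in the counts of the gene was 12.4% (exact interval 11.8% to 12.9%) and 45.9% (44.9% to 46.9%), a difference of 33.5 percentage points. Along the genome, the ends of the models lie 23 and 12 bases apart, and a net difference of 3 bases lies inside. The counts are shares assigned to overlapping models, and the part of that assignment in this shift was not tested. With the curated transcript alone, *Ces1e* would be past 2-fold.

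The other shifts were smaller. In *Ces2e*, variant 2 (2007 bases) had 28553 and 15683 counts and a ratio of -0.60 (-0.63 to -0.57), while variant 1, which is 692 bases longer and has the same ends, had 4213 and 3668 counts and a ratio of 0.06 (-0.0005 to 0.13). The share of variant 1 was 12.9% (12.5% to 13.2%) and 19.0% (18.4% to 19.5%). In *Ces3a* 5 transcripts were listed. Its variant X3 led with 46564 and 37512 counts, 40.2% and 40.9% of the gene. Its variant X2 had 26301 and 25277 counts, 22.7% and 27.5%, and its variant 2 had 25729 and 15346 counts, 22.2% and 16.7%. In *Ces2a*, variant 2 had 75 counts with AAV-GFP and 0 with AAV-*Wee1-AS*, and it held 0.975% of the gene in AAV-GFP. It was 20.8-fold lower with the 0 set to a floor of 3 counts and the 75 counts taken as exact. The upper end of its counting interval, -4.05 on the log2 scale, allows a smaller fall. In *Ces1b* and *Ces1f* 1 transcript held at least 97.9% of the counts in both libraries. In *Ces3b*, 6 of 10 transcripts were past 2-fold on the higher side, beside 31.7% of all transcripts, going from 562 counts together to 3857, and the other 4 had 10015 and 8788 counts.

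**Figure D4:**
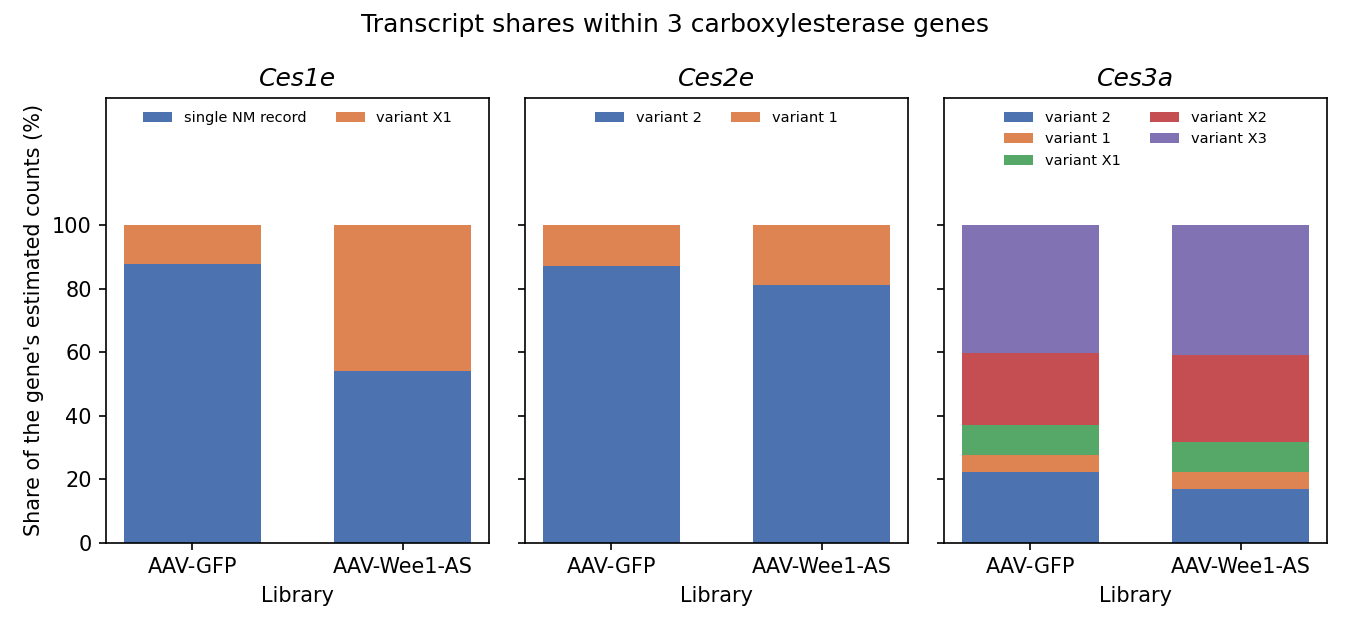
Share of the estimated counts of *Ces1e*, *Ces2e* and *Ces3a* held by each listed transcript (y axis, percent) in the AAV-GFP and the AAV-*Wee1-AS* library (x axis, 1 library each). The predicted variant X1 of *Ces1e* goes from 12.4% to 45.9%, and variant 1 of *Ces2e* from 12.9% to 19.0%.

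The ratio of a gene moved with its base composition across all genes. Across 14995 genes with a known GC content, the Spearman coefficient between log2 ratio and GC content was -0.67, a description of these 2 libraries in which genes are not independent. The members have a GC content of 47.3% to 50.8%, close to the median of 49.8% over all genes, so they lie in the middle of this trend. Set against genes within 1 percentage point of their own GC content, *Ces1c* (48.8%) lay 0.01 above the median of 1651 such genes, and *Ces3a* (50.5%) lay 0.01 above that of 1672. *Ces2e* (47.7%) lay furthest from its peers, with a log2 ratio of -0.50 where the median of 1668 genes was 0.35. *Ces1g* (47.3%) followed, with -0.35 where the median of 1646 genes was 0.42. With the trends in GC content and length removed, 15.9% of the 14995 genes were past 2-fold and none of the members. The members then ranged from -0.75 (*Ces2e*) to 0.18 (*Ces1c*), with a median of -0.08, and *Ces1g* was at -0.63.

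**Figure D5:**
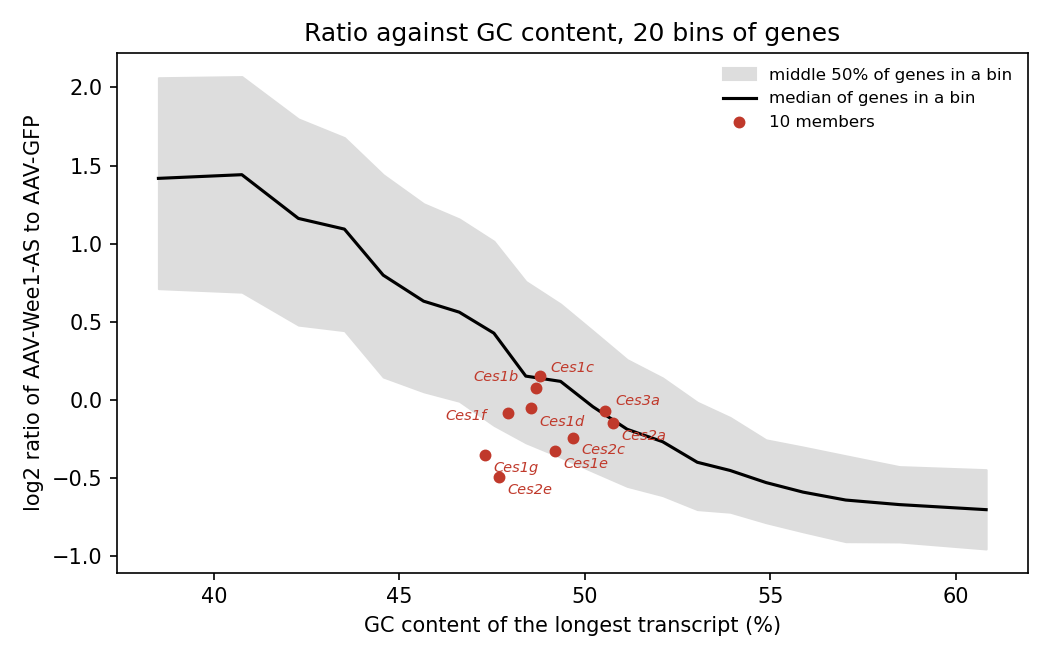
Log2 ratio (AAV-*Wee1-AS* over AAV-GFP) against the GC content of the longest transcript (percent), with the median (line) and the middle 50% (band) of genes in 20 bins of GC content and the 10 members as points. *Ces1c* and *Ces3a* lie on the line, and *Ces2e* and *Ces1g* lie below the band.

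The start regions of *Ces1b* and *Ces1c* are shown because their promoter windows had the longest shared run among the pairs compared. RefSeq promoter windows of GRCm38.p6 matched 7 of the 10 members, *Ces1b*, *Ces1c*, *Ces1e*, *Ces1g*, *Ces2a*, *Ces2c* and *Ces2e*, and not *Ces1d*, *Ces1f* and *Ces3a*. Each line gives the 150 bases before a start, 5′ to 3′, and the capitals mark the longest run of bases that both share.
Ces1b (chr8:93079941-93080090, strand minus): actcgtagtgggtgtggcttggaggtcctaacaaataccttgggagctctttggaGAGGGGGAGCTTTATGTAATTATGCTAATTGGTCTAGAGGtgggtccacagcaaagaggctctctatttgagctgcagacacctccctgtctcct
Ces1c (chr8:93131284-93131433, strand minus): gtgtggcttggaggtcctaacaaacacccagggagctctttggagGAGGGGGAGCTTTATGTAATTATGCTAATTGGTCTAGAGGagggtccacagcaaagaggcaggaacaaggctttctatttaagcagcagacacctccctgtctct
The shared run was 40 bases long, began 95 bases before the start of *Ces1b* and 105 bases before that of *Ces1c*, and the aligned windows were identical at 94.9% of 138 bases. RefSeq lists a second start of *Ces1b*, and the deposited transcripts of *Ces1b* begin upstream of the start used here (93079940), at 93080017 and 93080021. Part of the printed *Ces1b* window thus lies within the span of those transcripts. Among the 27 pairs of windows of different members, the next longest run was 24 bases, between the other *Ces1b* window and *Ces1c*. Those windows were identical at only 58.5% of 130 aligned bases. No measurement of these livers bears on the promoters directly. The levels of the pair differed widely, 81.5 against 2021 TPM with AAV-GFP.

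Other enzymes and partners of the same metabolism were counted by lists. Of 16 other ester, lipid and epoxide hydrolases of the liver, 4 were more than 2-fold higher and 2 more than 2-fold lower, with a median log2 ratio of 0.10. The higher ones were *Aadac*, an arylacetamide deacetylase of the endoplasmic reticulum (11477 and 19607 counts, ratio 1.04), *Nceh1*, a cholesteryl ester hydrolase (1097 and 1925 counts, 1.07), *Pon3*, a paraoxonase (2232 and 6314 counts, 1.76), and *Bche*, butyrylcholinesterase (1137 and 3914 counts, 2.04). The lower ones were *Ephx1*, the microsomal epoxide hydrolase (63030 and 25420 counts, -1.05), and *Pnpla3*, a lipid droplet protein (137 and 50 counts, -1.16). Of 8 partners in triacylglycerol storage and VLDL assembly, *Apob*, the structural protein of VLDL, was higher (71263 and 209460 counts, ratio 1.82) and *Cidec*, a lipid droplet protein, was lower (7683 and 1236 counts, -2.37), and the median was -0.56. Of 7 regulators reported to act on carboxylesterase genes, none was past 2-fold and the median was 0.13. The regulators with the highest counts were *Rxra* (37890 and 25323, ratio -0.32) and *Hnf4a* (28995 and 23096, ratio -0.06). These counts stand beside 31.0% of all genes past 2-fold. With the trends in GC content and length removed, most of the calls named here were lost, and *Pon3* (1.25) and *Cidec* (-1.59) were those that stayed past 2-fold. *Aadac* was then at 0.07, *Nceh1* at 0.18, *Bche* at 0.43, *Ephx1* at -0.48, *Pnpla3* at -0.42 and *Apob* at 0.20. The median of the hydrolases became -0.25, that of the partners 0.02 and that of the regulators 0.23, with *Lipa*, a lysosomal lipase (-1.29), and the regulator *Ppara* (1.01) past 2-fold only in that form.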

How the data were processed

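RNA sequencing of liver was analysed for 1 AAV-GFP and 1 AAV-Wee1-AS library. The submitters' processing notes name Trimmomatic 0.38, HISAT2 2.1.0, SAMtools 1.9, StringTie 2.1.3b and the build mm10. The authors deposited estimated counts, FPKM and TPM per RefSeq transcript, and 99.7% of the deposited counts equal FPKM times length over a constant, rounded up. Depth was 55466182 and 48079335 counts.

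Counts were summed per symbol and scaled by TMM (edgeR 4.0.16, R 4.3.3, factors 1.02 and 0.980). Log2 ratios used a prior count of 2, and genes reaching 10 counts in either library were kept. Intervals are exact (Clopper-Pearson for ratios and shares, Poisson for levels) and cover counting error only. Transcripts used the scaling of the genes. GC content came from the longest GENCODE M21 transcript (94.6% of kept genes), and trends were removed by lowess (span 0.3, 5 cycles). Coding sequences were aligned with Biopython 1.88. The steps were tested on simulated data. DESeq2 1.42.0 size factors and other scalings, filters, units and transcript choices were alternatives.

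The members and lists were chosen with earlier results of these data known. The genes named are the members, the other carboxylesterases, genes inside or next to their clusters, and of each list other than cell type and sex markers those past 2-fold with at least 100 counts or, where none was, the 2 with the highest counts. *Kdelr3*, *Lipa*, *Ppara* and the markers named were added after their values were seen.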

Additional observations from a re-analysis of the deposited data

How the results depend on the processing

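No paired analysis was possible because each group has 1 library, and for the same reason no library could be left out. Across 15 alternatives, 0 members were past 2-fold except with the most abundant transcript of each symbol only (1, *Ces1e*) and with NM transcripts only (1, *Ces1e*), where fewer transcripts are summed. The number of members above 0 was 2, except 0 with the upper quartile, 0 with hepatocyte marker scaling, 1 of 9 with NM transcripts only and 4 with the trends in GC content and length removed. The median kept its sign, was -0.38 with hepatocyte marker scaling, in which *Alb* weighs most, and was -0.15 over all 17 carboxylesterases past the count filter. *Ces1d*, *Ces1e*, *Ces1f*, *Ces1g*, *Ces2c* and *Ces2e* were below 0 under every alternative that was run. Some alternatives could not change this. Other count filters and the smaller prior count hardly touch genes counted this well, and adding *Ces3b* alters *Ces3a* alone. The smallest count of a member was 1704, and the spread between mice is unknown at any depth.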
